A study of Mus musculus with 8 samples.

Results

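The core planar cell polarity genes examined here are Celsr1, Celsr2, Celsr3, Vangl1, Vangl2, Prickle1, Prickle2, Scrib, Fat4 and Dchs1. They were chosen by name, and all 10 were found among the 16397 genes of the count table and passed the filter on low counts, so that each was tested. RNA came from E15.5 hippocampi of C57Bl/6J offspring, 4 from pregnancies with intrauterine growth restriction (IUGR) and 4 from sham controls. In both groups the dam carried a micro-osmotic pump from E12.5; it delivered U-46619, a thromboxane A2-analog that makes the dam hypertensive, in the IUGR group and vehicle alone in the sham group. No gene was deleted and no transgene was carried in either group, and per the study's methods hippocampi of both sexes were used. The IUGR samples are T1-1, T1-3, T1-4 and T1-5, and the sham samples are S1-4, S1-6, S3-1 and S3-4; values of single samples follow these orders throughout.

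Planar cell polarity is the alignment of cells within the plane of a sheet. Its core proteins sit in the membranes of neighboring cells, where Frizzled with Dishevelled on one side faces Vangl with Prickle on the other, and the Celsr cadherins bridge the gap by binding each other. A second system, the giant cadherins Fat4 and Dachsous1 (Dchs1), binds between cells in the same plane. In the developing brain these genes are known for neural tube closure, the orientation of cilia on ependymal cells, the migration of neurons and the guidance of axon tracts, and noncanonical Wnt ligands act through them without beta-catenin. The question put to the counts was whether these genes and the rest of the noncanonical Wnt pathway were expressed at another level in IUGR hippocampi than in sham controls.

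Total counts on genes were between 11212632 and 16672463 per sample and overlapped between the groups. Levels are given as CPM, the count per 1000000 counts after TMM scaling, and group differences as the log2 fold change of IUGR over sham from edgeR's quasi-likelihood test, with p adjusted over all 13707 tested protein-coding genes. Calls required an adjusted p no larger than 0.05 together with a change of at least 1 on the log2 scale, up or down. The labels do not say whether the samples of a group came from separate litters or what the prefixes T1, S1 and S3 stand for. All IUGR samples and no sham sample carry T1, so whatever the prefix stands for cannot be told apart from the treatment. The samples of a group may not be independent replicates of the treatment. The p values measure only the spread between these samples, which may be technical. Pallial and hippocampal markers were present in every sample: the 11 genes of that list summed to between 1271 and 2213 CPM, with Zbtb20 between 293 and 813 CPM. The sum of 15 genes of the choroid plexus, a tissue next to the hippocampus, ranged from 81.4 to 1280.5 CPM in IUGR hippocampi and from 5725 to 12344 CPM in shams. That of 14 genes of neurons, a main cell type of the hippocampus itself, was between 6051 and 6548 CPM in IUGR and between 4421 and 5336 CPM in sham. In RNA from whole tissue, fewer cells of a type and less RNA per cell cannot be told apart.

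RefSeq start sites with their upstream sequence (GRCm38.p6) were at hand for 6 of the 10 genes: Celsr2, Celsr3, Vangl2, Prickle1, Prickle2 and Fat4. The 250 bases before a start are printed for Prickle2, the member with the lowest p in the comparison below, at the outermost of its 4 annotated starts and at the start with the most TCF/LEF matches, and for Celsr2 and Celsr3, relatives that differ in sequence here. Each runs 5′ to 3′ on the minus strand, or on the plus strand for Celsr3. Capitals mark CTTTGA or CTTTGT, the core of a TCF/LEF site of canonical Wnt signaling, and GGGCGG, the GC box, each searched on both strands and allowed to overlap. None of these 4 windows overlaps an exon of the GENCODE M21 annotation.
Prickle2 outermost start, chr6:92706185-92706434: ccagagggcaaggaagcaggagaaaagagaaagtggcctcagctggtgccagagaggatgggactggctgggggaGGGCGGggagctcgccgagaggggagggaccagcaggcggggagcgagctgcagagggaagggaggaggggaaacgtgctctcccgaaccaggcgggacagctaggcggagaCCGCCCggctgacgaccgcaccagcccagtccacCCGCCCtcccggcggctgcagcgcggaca
Prickle2 inner start, chr6:92567367-92567616: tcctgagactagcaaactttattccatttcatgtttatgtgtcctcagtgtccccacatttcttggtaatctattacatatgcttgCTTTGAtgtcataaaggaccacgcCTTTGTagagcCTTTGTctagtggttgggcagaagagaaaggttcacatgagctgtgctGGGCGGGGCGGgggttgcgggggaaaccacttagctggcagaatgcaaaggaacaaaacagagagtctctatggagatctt
Celsr2, chr3:108415580-108415829: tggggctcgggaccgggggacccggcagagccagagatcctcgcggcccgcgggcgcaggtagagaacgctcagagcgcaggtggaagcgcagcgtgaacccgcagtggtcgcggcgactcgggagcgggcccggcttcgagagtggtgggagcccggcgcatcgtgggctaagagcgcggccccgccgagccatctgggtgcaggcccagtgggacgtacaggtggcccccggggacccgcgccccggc
Celsr3, chr9:108825795-108826044: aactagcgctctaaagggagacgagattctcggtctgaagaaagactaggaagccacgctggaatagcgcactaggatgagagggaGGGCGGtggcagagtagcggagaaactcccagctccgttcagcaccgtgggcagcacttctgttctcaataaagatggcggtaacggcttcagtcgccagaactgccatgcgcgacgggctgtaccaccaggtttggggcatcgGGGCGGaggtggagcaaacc
The starts of Prickle2 are spread over 224792 bases. Its outermost window is 70% G or C, with 18 CpG and 3 GC boxes, whereas the inner window, which lies in an intron of the longest gene model, is 46.4% G or C, with 4 CpG, 2 GC boxes and 3 TCF/LEF matches. The inner window was picked for its TCF/LEF matches, and no other window of the 6 genes held one. Over all 32817 RefSeq windows of the same 250 bases, 27.6% held a TCF/LEF match and 32.7% a GC box, so either match is common. The Celsr2 window held neither, at 75.2% G or C, and the Celsr3 window held 2 GC boxes at 58.0% G or C. A match of letters is a description and not a shown binding site, and the counts do not say which start was used.

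None of the 10 core genes was called between IUGR and sham hippocampi by edgeR's test, in which 1.46% of all tested genes were called (200 of 13707). One of the 10, Prickle2, had an unadjusted p under 0.05, beside 11.1% of all tested genes. The CPM ranges of the groups overlapped for each of the 10, beside 7.14% of tested genes whose groups did not overlap. DESeq2's Wald test and limma-voom also called 0 of the 10. Estimates were below 0 for 6 genes and above 0 for 4, with a median of -0.07 on the log2 scale, where the median over all tested genes was -0.02. With a single sample left out the median of the 10 ran from -0.17 without S3-1 to 0.11 without S1-6, so it had no stable sign. For 8 of the 10 the 95% confidence interval of the log2 fold change lay within -1 and 1, as it did for 76.8% of tested genes; the other two were Celsr1, whose interval reached a fall of more than 2-fold, and Prickle2, whose interval reached a rise of more than 2-fold.

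**Figure D1:**
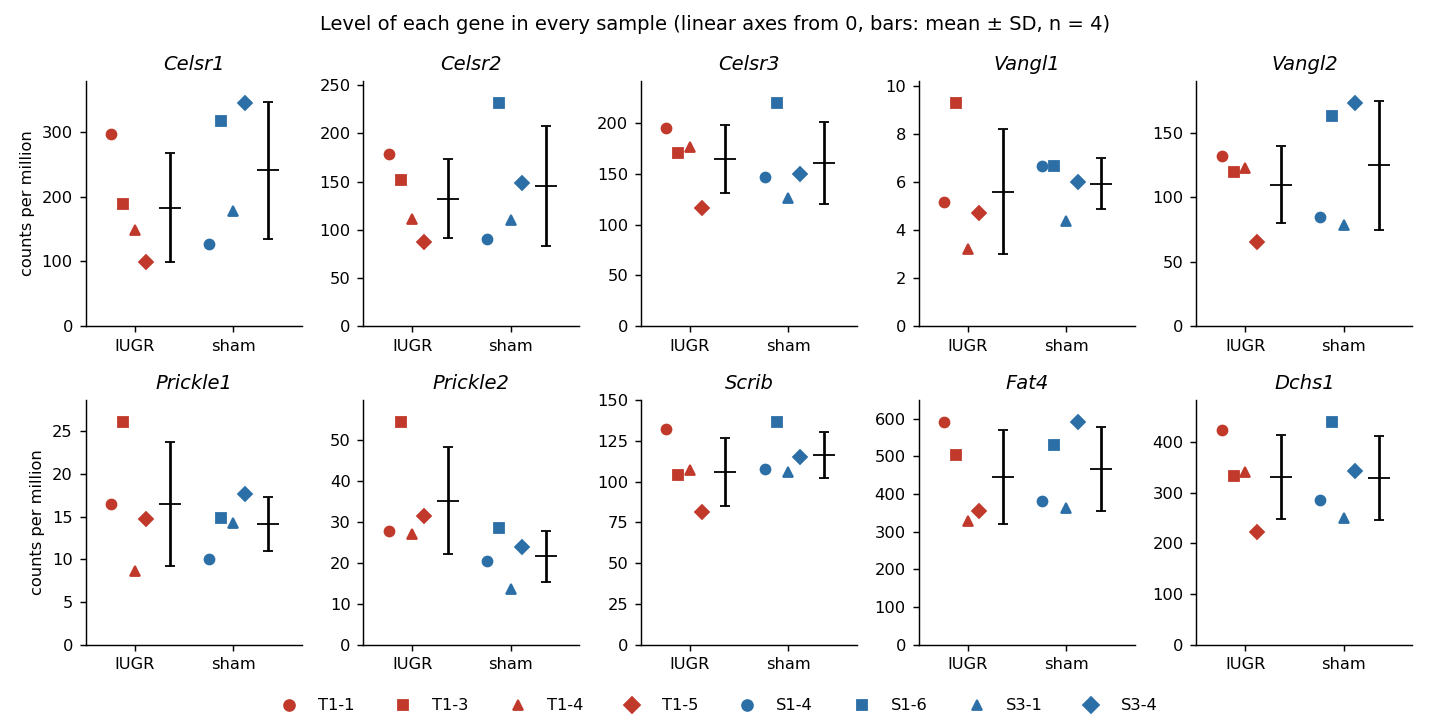
CPM of each core gene in each of the 8 samples (points, shape by sample), with the mean and SD of each group of 4 (bars), on linear axes from 0. In every panel the IUGR and sham points overlap, and S1-6 lies above S1-4 in all 10, though barely for Vangl1.

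Celsr1, Celsr2 and Celsr3 are seven-pass cadherins that hold the polarity complexes of adjacent cells together, and Celsr3 is known above all for axon guidance in postmitotic neurons. Celsr1 (ENSMUSG00000016028, chr15:85898929-86033777, minus strand, 35 merged exons) was at 298, 188, 148 and 99.1 CPM in the IUGR samples. Its sham values were 126, 317, 177 and 344 CPM. The 2 highest values were those of the sham samples S3-4 and S1-6, but T1-1 lay just under them and the lowest sham value lay below that of 3 IUGR samples. By edgeR the log2 fold change was -0.40 (SE 0.37, 95% interval -1.22 to 0.43, adjusted p = 0.963), from means of 183 ± 84.6 CPM in IUGR hippocampi against 241 ± 106 CPM in shams (SD, n = 4). With a single sample left out, the estimate for Celsr1 ran from -0.71 without T1-1 to -0.17 without S3-4.

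Celsr2 (ENSMUSG00000068740, chr3:108390851-108415552, minus strand) was at 179, 152, 111 and 87.5 CPM in the IUGR samples. Its sham values were 90.1, 231, 109.8 and 149 CPM. S1-6 and T1-1 were again among the highest and S1-4 and T1-5 were the lowest, 1 of each pair in each group. Celsr2 differed by -0.13 on the log2 scale (SE 0.30, interval -0.80 to 0.54, adjusted p = 0.9995). Celsr3 (ENSMUSG00000023473, chr9:108826320-108852969, plus strand) had IUGR values of 196, 170.4, 176 and 117 CPM. Its sham values were 147, 219.8, 126 and 149.6 CPM. The highest value was a sham and the lowest an IUGR sample, with the other 6 in between. The log2 fold change of Celsr3 was 0.04 (SE 0.20, interval -0.41 to 0.48, adjusted p = 0.9995), so the 8 samples bounded a change of Celsr3 more tightly than one of Celsr1.

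Vangl1 and Vangl2 are four-pass membrane proteins that recruit Prickle, and Vangl2 is the gene mutated in the looptail mouse, whose neural tube fails to close. Vangl2 (ENSMUSG00000026556, chr1:172000960-172028444, minus strand) was at 132, 119, 123 and 65.2 CPM in the IUGR samples. Sham controls had 85.0, 163, 78.5 and 173 CPM. The sham samples split into a high and a low pair, with 3 of the 4 IUGR values between them. Vangl2 differed by -0.19 on the log2 scale (SE 0.30, interval -0.85 to 0.48, adjusted p = 0.9995). Vangl1 (ENSMUSG00000027860, chr3:102153583-102204693, minus strand) was the least abundant of the 10, with between 38 and 151 counts a sample. It was at 5.17, 9.28, 3.20 and 4.71 CPM in the IUGR samples, and at 6.66, 6.67, 4.39 and 5.99 CPM in the shams. Both the highest and the lowest value were IUGR samples, and the 4 sham values lay between them. For Vangl1 the estimate was -0.08 (SE 0.32, interval -0.80 to 0.64, adjusted p = 0.9995).

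Prickle1 and Prickle2 are cytoplasmic LIM-domain proteins that bind Vangl and oppose Dishevelled, and both are also known from neurons, where Prickle2 is found at synapses. Prickle2 (ENSMUSG00000030020, chr6:92370908-92706155, minus strand, 12 merged exons) was at 27.8, 54.4, 27.0 and 31.4 CPM in the IUGR samples. Its sham values were 20.4, 28.4, 13.5 and 23.7 CPM. Of the 4 sham samples 3 lay below all IUGR samples, and the sham sample S1-6 lay just above T1-1 and T1-4. The estimate by edgeR was 0.71 on the log2 scale (SE 0.28, interval 0.09 to 1.33), or 1.64-fold, which passed an unadjusted p of 0.05 but not the adjustment over all genes (adjusted p = 0.339). Without T1-3 the estimate was 0.45 with an adjusted p of 0.668, and over the alternatives the adjusted p ran from 0.136 to 0.891. Against the S1 sham samples alone it was 0.53, and against the S3 sham samples alone 0.93. T1-3 was also the sample with the most meningeal RNA: the 9 meningeal genes summed to 2799.9 CPM there, between 71.1 and 771 CPM in the other IUGR samples and between 266 and 546 CPM in sham, with Col3a1 between 22.5 and 1310.0 CPM and no marker of the list at 0 in any sample. All 14 neuronal markers had estimates above 0 in IUGR, with a median of 0.59 on the log2 scale. None of the 14 was called by edgeR, but 8 had an unadjusted p under 0.05 (57.1%, beside 11.1% of all tested genes) and 3 did not overlap between the groups, beside 7.14% of all tested genes, and none was at 0 in any sample. The part of the meningeal and neuronal RNA in the Prickle2 values was not tested.

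Prickle1 (ENSMUSG00000036158, chr15:93499114-93595891, minus strand) was at 16.5, 26.1, 8.68 and 14.7 CPM in the IUGR samples. The sham values were 9.98, 14.8, 14.3 and 17.7 CPM. T1-3 was the highest sample, as it was for Prickle2 and Vangl1, and the lowest was T1-4. The log2 fold change of Prickle1 was 0.22 (SE 0.31, interval -0.47 to 0.90, adjusted p = 0.9995), and without T1-3 it fell on the other side of 0, at -0.07.

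Scrib is a cytoplasmic scaffold with leucine-rich repeats and PDZ domains that works with Dlg and Lgl in apical-basal polarity and binds Vangl2 in planar polarity. Scrib (ENSMUSG00000022568, chr15:76047158-76069784, minus strand) was at 132, 104, 107 and 81.4 CPM in the IUGR samples, and at 108, 137, 106 and 115 CPM in the shams. It had the narrowest range of the 10, with 1.68-fold between its highest and lowest sample. Its log2 fold change was -0.13 (SE 0.16, interval -0.49 to 0.22, adjusted p = 0.9995), which ran from -0.22 without T1-1 to -0.013 without S1-6.

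Fat4 and Dchs1 bind each other between cells and are known in the forebrain for restraining the proliferation of neural precursors and guiding neuronal migration. Fat4 (ENSMUSG00000046743, chr3:38886940-39011985, plus strand) was at 592, 502, 328 and 355 CPM in the IUGR samples. Sham controls had 382, 529.6, 364 and 591 CPM. In each group 2 samples were high, at 502 CPM or more, and 2 were low, at 382 CPM or less. Fat4 had a log2 fold change of -0.07 (SE 0.23, interval -0.57 to 0.43, adjusted p = 0.9995). An antisense gene, C230034O21Rik, overlaps exons of Fat4, and the strand setting of the counting is not given in the sources used here, so reads of the pair may be mixed. Dchs1 (ENSMUSG00000036862, chr7:105752990-105787654, minus strand) was at 424, 333, 341 and 223 CPM in the IUGR samples, and at 285, 439.6, 249.8 and 343 CPM in the shams. The group means of Dchs1 nearly coincided, at 330.2 ± 82.6 CPM in IUGR hippocampi against 329 ± 82.9 CPM in shams (SD, n = 4), with a log2 fold change whose interval ran from -0.48 to 0.49 (SE 0.22, adjusted p = 0.9995).

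**Figure D2:**
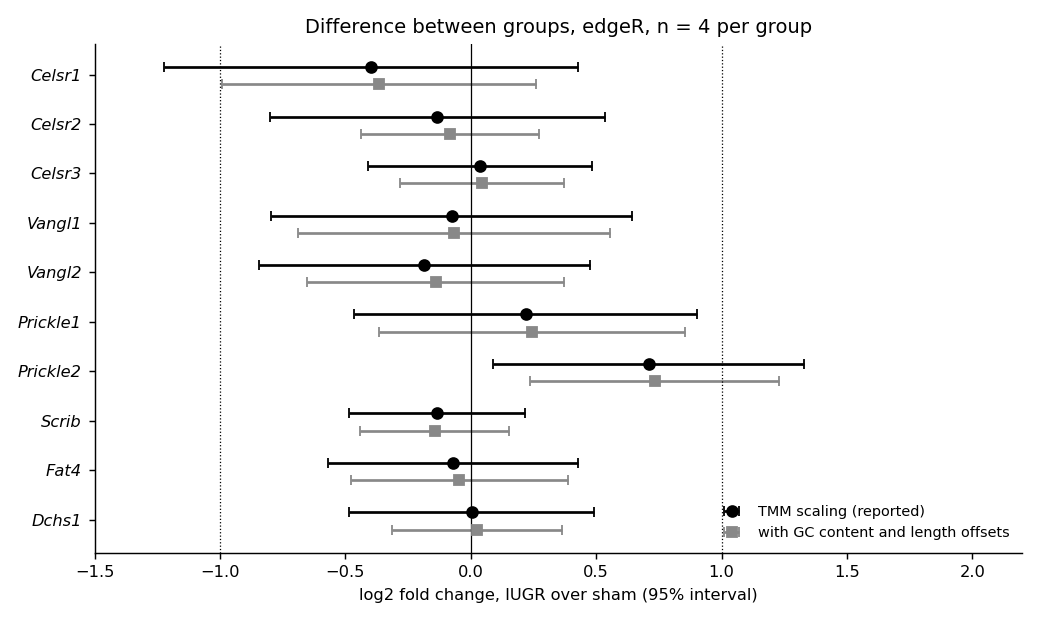
Log2 fold change of IUGR over sham for each core gene with its 95% confidence interval, from edgeR with TMM scaling (black) and with added offsets for GC content and transcript length (grey). Dotted lines mark -1 and 1. Of the 10 black intervals only that of Prickle2, from 0.09 to 1.33, leaves out 0.

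To compare levels between genes, CPM was divided by the exonic length in kb. In sham hippocampi Dchs1 (29.8 ± 7.50 CPM per kb, SD, n = 4) and Fat4 (27.2 ± 6.50) came first, followed by Celsr1 (21.9 ± 9.62), Scrib (18.0 ± 2.19), Vangl2 (17.8 ± 7.14), Celsr3 (13.3 ± 3.38) and Celsr2 (12.6 ± 5.42). Prickle1 (3.26 ± 0.731) and Prickle2 (2.49 ± 0.726) came next, and Vangl1 was last at 0.828 ± 0.150 CPM per kb. Fat4 exceeded Celsr1, Celsr2 exceeded Prickle1, and Prickle2 exceeded Vangl1 in 8 of 8 samples. The other neighbors in this order changed places: Dchs1 exceeded Fat4 in 6 of 8 samples, Vangl2 exceeded Celsr3 in 6, Celsr3 exceeded Celsr2 in 6, and the pairs Celsr1 and Scrib, Scrib and Vangl2, and Prickle1 and Prickle2 stood each way round in 4. Of the paralogs, then, Vangl2 was far above Vangl1 in this tissue, whereas the 3 Celsr genes lay close together.

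The ratio of paralogs or partners within a sample does not depend on library size, and 5 such ratios were compared by two-sided exact permutation tests, which with 4 samples against 4 cannot go below p = 0.0286. The log2 ratio of Celsr3 to Celsr1 was -0.06 ± 0.41 in IUGR and -0.50 ± 0.58 in sham (SD, n = 4; exact p = 0.314, adjusted p over the 5 ratios = 0.786). That of Prickle2 to Prickle1 was 1.13 ± 0.36 in IUGR and 0.58 ± 0.51 in sham (exact p = 0.143, adjusted p = 0.714). The 4 IUGR values of this ratio were between 0.75 and 1.63, and 2 sham samples, S3-1 at -0.08 and S3-4 at 0.42, lay below them. The ratios of Celsr3 to Celsr2, Vangl1 to Vangl2 and Dchs1 to Fat4 differed by 0.14, -0.03 and 0.08 (exact p = 0.571, 0.914 and 0.714). None of the 5 ratios was separate between the groups.

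**Figure D3:**
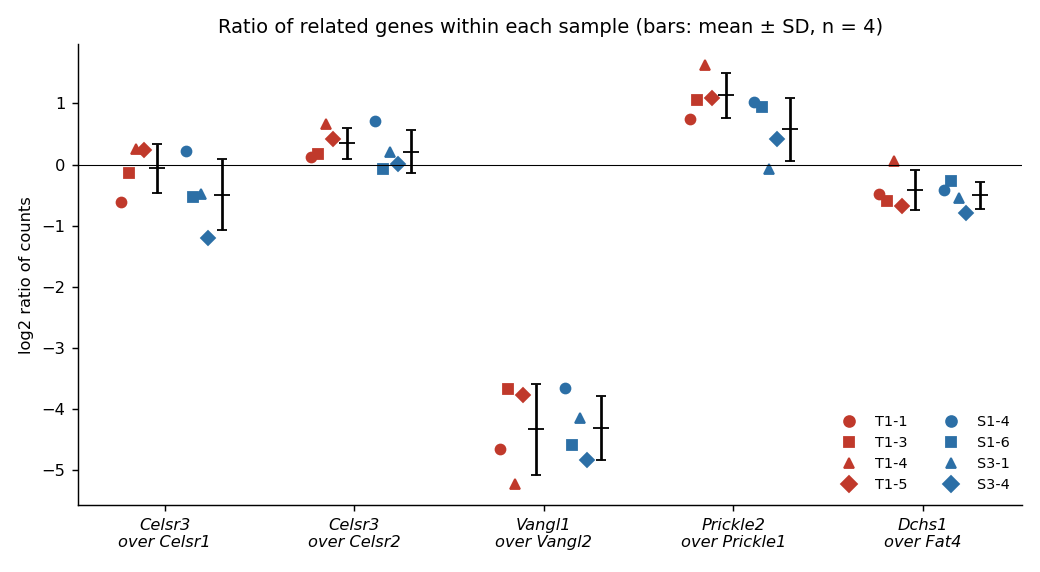
Log2 ratio of the counts of related core genes in each sample (points), with mean and SD per group of 4 (bars). The largest shift between means, for Prickle2 over Prickle1 (1.13 against 0.58), is about the size of the SD within the sham group.

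Of the core genes 7 averaged 1000 counts or more and were set against other genes of that abundance for their spread within a group. Among the 3696 tested genes at this level, the median SD of log2 CPM within groups was 0.22. That of Celsr1 was 0.68, larger than in 98.6% of these genes, that of Vangl2 was 0.54 (97.0%), that of Celsr2 was 0.53 (96.8%), and those of Fat4, Dchs1 and Celsr3 were 0.38, 0.37 and 0.33 (89.3%, 88.3% and 83.1%). Scrib, at 0.23, was near the middle (57.3%). Vangl1, Prickle1 and Prickle2 have fewer counts and were not compared in this way; their SDs were 0.45, 0.50 and 0.46. The samples that were high or low were partly shared. S1-6 was above S1-4 for 10 of 10 genes, though barely for Vangl1 (6.67 and 6.66 CPM), and T1-1 above T1-5 for 9 of 10. These pairs were picked from the same values, and the share over all tested genes was not counted. T1-5 was the lowest sample for 6 genes, T1-4 for 3 and S3-1 for 1. S1-6 was the highest for 4, T1-3 for 3, S3-4 for 2 and T1-1 for 1.

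**Figure D4:**
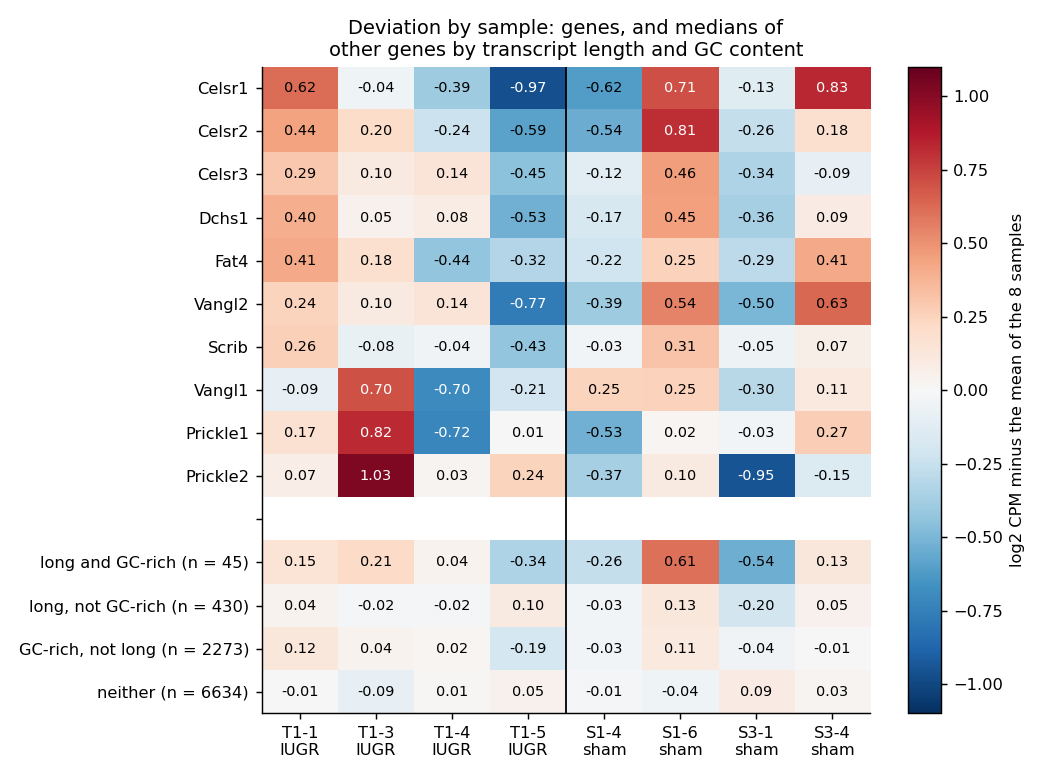
Log2 CPM of each core gene in each sample minus its mean over the 8 samples (upper rows), and the median of the same deviation over other tested genes split by transcript length and GC content (lower rows). Celsr1, Celsr2, Celsr3 and Dchs1 and the median of the 45 long and GC-rich genes are all high in S1-6 and low in T1-5, S1-4 and S3-1.

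The longest transcripts of Celsr1, Celsr2, Celsr3 and Dchs1 are between 10598 and 11571 bases long and between 57.8% and 58.8% G or C. Other genes with a transcript of at least 9000 bases and at least 54% G or C (45 genes averaging 200 counts or more) moved with the sample in a partly like way. Their median deviation from the mean log2 CPM was 0.61 in S1-6, 0.21 in T1-3, 0.15 in T1-1, 0.13 in S3-4 and 0.04 in T1-4. It was -0.34 in T1-5, -0.26 in S1-4 and -0.54 in S3-1. In T1-4 Celsr1 and Celsr2 deviated by -0.39 and -0.24, and Celsr3 and Dchs1 by 0.14 and 0.08. In S3-4 these core genes ran from -0.09 for Celsr3 to 0.83 for Celsr1. The 6634 genes that were neither long nor GC-rich had medians between -0.09 and 0.09. Vangl2 is of this last class by its transcript of 6528 bases, which at 53.2% G or C is just under the 54% cut. It deviated by 0.54 in S1-6, -0.77 in T1-5, -0.39 in S1-4 and -0.50 in S3-1, like the long and GC-rich core genes and unlike the median of its own class. When GC content and length were given to edgeR as offsets, a setting chosen after seeing these deviations, the standard error became smaller for each of the 10 core genes, from 0.30 to 0.16 for Celsr2 and from 0.20 to 0.15 for Celsr3. It fell also for Prickle2 (0.28 to 0.22), which is neither long nor GC-rich, but rose for Dvl1 (0.15 to 0.24) and Fzd3 (0.12 to 0.14). The offsets were fitted to these same counts, and the share of all tested genes with a smaller standard error was not counted. The part of length and GC content in the deviations was not tested. The log2 fold change of Celsr1 was then -0.37 (SE 0.28), that of Celsr2 -0.08 (interval -0.44 to 0.27), that of Dchs1 0.02 (interval -0.32 to 0.36) and that of Prickle2 0.73 (SE 0.22, adjusted p = 0.136). None of the 10 was called with the offsets either, and 9 of the 10 intervals lay within -1 and 1, all but that of Prickle2.

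The remaining noncanonical Wnt and polarity genes were taken from 7 lists of 88 genes by role, of which 85 were tested. One of the 85 was called, Llgl2, beside 1.46% of all tested genes, and 6 did not overlap between the groups, beside 7.14%, so neither count stood out from the background. Of the 85, 8 had an unadjusted p under 0.05 (9.41%, beside 11.1% of all tested genes). Of these 8, 7 had a lower and 1 a higher estimate in IUGR, beside 908 lower and 612 higher over all tested genes. The median log2 fold change of the 85 was -0.05. Dchs2, Cplane1 and Ankrd1 were not analysed here.

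Among 7 receptors and coreceptors none was called. Fzd3, the Frizzled of axon guidance, averaged 289 ± 33.6 CPM in IUGR hippocampi against 279.8 ± 22.0 CPM in shams (SD, n = 4), with a log2 fold change of 0.05 (interval -0.23 to 0.32). For Fzd6 the estimate was 0.00 (interval -0.57 to 0.57), and for the pseudokinase receptors Ptk7 and Ryk and the kinase-like receptors Ror2 and Ror1 it was -0.11, -0.12, -0.24 and 0.13. Fzd7, a Frizzled used by canonical and noncanonical Wnts, was at 19.8, 30.9, 14.2 and 14.1 CPM in the IUGR samples, and at 36.8, 39.6, 38.6 and 48.4 CPM in the shams, so that the groups did not overlap. Its log2 fold change was -1.05 (SE 0.25), with an adjusted p of 0.0723, and it was called in 4 of 18 alternatives: by DESeq2's Wald test (adjusted p = 0.00535), by limma-voom (0.0396), without T1-3 (0.016) and with the GC and length offsets (0.0257). Over the other alternatives its adjusted p was as high as 0.441, against the S1 sham samples alone. The study itself reported no change of Fzd7, neither in its RNA sequencing nor by quantitative PCR of hippocampi from a separate cohort.

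Of the 7 ligands none was called; 5 had estimates below 0 and 2 above 0, and their median, -0.40, was the lowest of the 7 pathway lists. Wnt5a, the ligand that stands for the noncanonical pathway, ranged from 48.2 to 66.9 CPM in IUGR hippocampi and from 51.1 to 119 CPM in shams, with a log2 fold change of -0.40 (SE 0.24, adjusted p = 0.703), and of -0.12 without S3-4. Wnt11 was near the floor of detection, between 0.0843 and 1.84 CPM, with an estimate of -0.50 (SE 0.68) that ran from -1.51 without T1-3 to -0.15 without T1-4. Wnt7b had an estimate of -0.78 (SE 0.30, adjusted p = 0.318), which was -0.46 without S3-1, -0.17 against the S1 sham samples alone and -1.18 against the S3 sham samples alone. Wnt9a was at 2.17, 5.78, 1.01 and 3.65 CPM in the IUGR samples, and at 13.2, 10.9, 7.14 and 13.6 CPM in the shams. All IUGR values of Wnt9a lay below all sham values, and its log2 fold change was -1.81 (SE 0.45, adjusted p = 0.0842), with calls in 3 of 18 alternatives, by DESeq2 (0.00336), by limma-voom (0.0447) and without T1-3 (0.0326). Over the other alternatives the adjusted p of Wnt9a was as high as 0.343, against the S3 sham samples alone. The other 3 ligands, named after their values were seen, were Wnt5b with an estimate of -0.02 (SE 0.22), Wnt7a with 0.12 (SE 0.18) and Wnt4 with 1.16 (SE 0.63, adjusted p = 0.618), the highest estimate of the 85 genes.

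**Figure D5:**
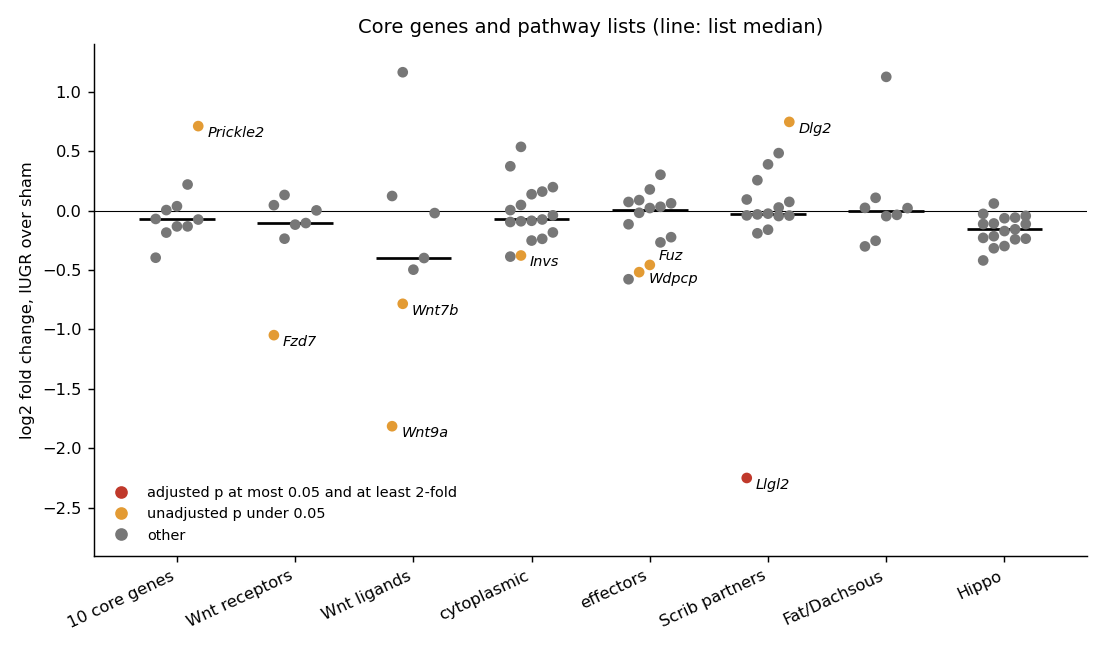
Log2 fold change of IUGR over sham for the 10 core genes and for each tested gene of the 7 pathway lists (points), with the median of each list (line). Llgl2, at -2.25, is the called gene, and the genes with an unadjusted p under 0.05 are named.

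None of 17 cytoplasmic components was called. The Dishevelled genes Dvl1, Dvl2 and Dvl3, which relay the Frizzled signal, had estimates of -0.04, -0.25 and -0.39 (SE 0.15, 0.16 and 0.26), and without S1-6, the sham sample with the most Dvl3, the estimate for Dvl3 was 0.01. Prickle3 averaged 1.72 ± 0.382 CPM in IUGR hippocampi against 2.04 ± 0.982 CPM in shams (SD, n = 4). Invs (inversin), a ciliary protein that binds Dishevelled, ranged from 17.8 to 21.8 CPM in IUGR hippocampi and from 25.6 to 26.4 CPM in shams, with a log2 fold change of -0.38 (SE 0.13, adjusted p = 0.26). Of 14 effectors, the formins Daam1 and Daam2, which link Dishevelled to actin, had estimates of -0.22 and -0.58 (SE 0.12 and 0.33), and that of Daam2 was -0.29 without S1-6 and -0.88 without T1-3. Fuz (fuzzy) and Wdpcp (fritz), polarity effectors needed for cilia, had estimates of -0.46 and -0.52 (SE 0.15 and 0.16, adjusted p = 0.216 and 0.194), and Fuz did not overlap between the groups. The sum of 10 motile cilia genes ranged from 35.5 to 144 CPM in IUGR hippocampi and from 229.8 to 377 CPM in shams, with Ccno and Dnaaf1 at 0 in at least 1 sample, and its part in the values of Invs, Fuz and Wdpcp was not tested.

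Llgl2, a relative of the fly polarity gene lethal giant larvae and one of 15 partners of Scrib, was at 1.65, 1.91, 0.253 and 1.83 CPM in the IUGR samples. Its sham values were 8.04, 7.01, 5.18 and 6.99 CPM. It was lower in IUGR, with a log2 fold change of -2.25 (SE 0.45, adjusted p = 0.0391) and no overlap between the groups. The call was lost in 9 of 18 alternatives, among them those without any one of the 4 sham samples, T1-1 or T1-5, with an adjusted p from 8.12e-05 to 0.231 over the alternatives, while the log2 fold change stayed between -2.49 and -1.92 in all 18. The 15 choroid plexus markers, whose sums are given above, all had estimates below 0 where tested (13 of 13, 3 called as lower in IUGR, beside 1.46% of all tested genes called), Ttr was between 10.2 and 10851 CPM and Clic6 between 1.77 and 343 CPM, and none was at 0 in any sample. All 12 cortical hem markers also had estimates below 0, 7 of them called beside the same share. The part of these tissues in the Llgl2, Fzd7 and Wnt9a values was not tested. Dlg2, a synaptic scaffold of the Dlg family, ranged from 39.7 to 66.2 CPM in IUGR hippocampi and from 24.6 to 34.9 CPM in shams, with a log2 fold change of 0.75 (SE 0.19, adjusted p = 0.103).

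The other Fat cadherins had estimates of -0.25 for Fat1 (SE 0.23), 1.12 for Fat2 (SE 0.60) and 0.02 for Fat3 (SE 0.23), and that of Fat1 was -0.029 without S1-6. Fat2 ranged from 0.590 to 7.07 CPM in IUGR hippocampi and from 0.998 to 1.90 CPM in shams, with the highest value in T1-3, and its estimate was 0.43 without that sample. Fjx1, the Golgi kinase that tunes the binding of Fat4 to Dchs1, averaged 65.2 ± 8.25 CPM in IUGR hippocampi against 60.5 ± 10.6 CPM in shams (SD, n = 4), a log2 fold change of 0.11 (SE 0.16). Of the 17 tested genes of the Hippo pathway, which Fat cadherins are known to touch on, none was called and none had an unadjusted p under 0.05. Over all tested genes these shares were 1.46% and 11.1%. Estimates of the 17 were below 0 for 16 and above 0 for 1, with a median of -0.16, beside -0.02 over all tested genes. The share of all tested genes with an estimate below 0 was not counted, and the 17 come from the same 8 samples. Yap1, its transcriptional coactivator, ranged from 82.7 to 120.1 CPM in IUGR hippocampi and from 78.5 to 156 CPM in shams (log2 fold change -0.30, SE 0.21, adjusted p = 0.816).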

How the data were processed

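Total RNA of 4 IUGR and 4 sham E15.5 hippocampi was depleted of ribosomal RNA, and stranded libraries were sequenced as single reads. The authors aligned the reads to GRCm38 (mm10) and deposited raw read counts per gene, 1 column per sample, without normalization. The submitters' processing notes name Novoalign 2.8; the counting program, annotation and strand setting are not given in the sources used here. Total counts per sample were between 11212632 and 16672463, and no 2 samples of a group agreed within sampling noise (12 pairs, lowest chi-square per degree of freedom 20.9), so each was used once.

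Identifiers were matched to GENCODE M21 (16124 of 16397), and protein-coding genes averaging at least 10 but under 50000 counts, after the criterion of the study, entered the test (13707 genes; edgeR 4.0.16 in R 4.3.3, TMM, quasi-likelihood test, Benjamini-Hochberg adjustment over all tested genes; tested on simulated data). Intervals follow from the F statistic. Within-family ratios used counts with 0.5 added and scipy 1.17.1. The 10 genes, the lists and the rule for named genes (all 10, a fixed set of pathway genes, and any listed gene called or with an unadjusted p under 0.05; for markers, the 2 most abundant of a list used) were chosen with earlier results of these data known. Within-group spread used log2 CPM with 0.5 added. Alternatives were other size factors, DESeq2 1.42.0, limma-voom (limma 3.58.1), other filters, all biotypes, other thresholds, each sample left out, the sham samples of either prefix alone, 2 added to counts, and, chosen after seeing the data, GC content and length offsets.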

Additional observations from a re-analysis of the deposited data

Results flagged for a closer look

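In 74 groups of 4 values (the 10 core genes and 27 named pathway genes in IUGR and in sham), 3 samples stood apart from the other samples of their group by Dixon's criterion, a test of the gap to the nearest sample over the whole range, which chance gives in about 1 of 20 groups. Prickle2 was at 54.4 CPM in the IUGR sample T1-3, with the other IUGR samples between 27.0 and 31.4 CPM. Dvl3 was at 52.8 CPM in the sham sample S1-6, with the others between 21.6 and 26.5 CPM. Llgl2 was at 0.253 CPM in the IUGR sample T1-4, with the others between 1.65 and 1.91 CPM.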

How the results depend on the processing

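None of the 10 core genes was called by edgeR under any setting tried, and with an unadjusted p alone 1 of them, Prickle2, passed. Of 180 estimates of the 10 genes under 18 alternatives, 158 kept their sign and 22 did not; Celsr1, Prickle2 and Scrib kept it in all. Of 483 estimates of the 27 named pathway genes, 25 changed sign, 9 lost the call and 7 gained it. Estimates on the other side of 0 were, against the S3 shams alone, Celsr2 0.052, Vangl1 0.13, Fzd6 -0.022, Dvl3 0.023, Prickle3 0.084, Fat3 -0.21 and Fjx1 -0.042. Against the S1 shams alone they were Celsr3 -0.16, Dchs1 -0.13 and Ror1 -0.093; with limma-voom Dchs1 -0.0002, Fzd6 -0.0008 and Ror1 -0.53; with no count filter Dvl1 0.0015; and with GC and length offsets Fzd3 -0.055 and Fat3 -0.032.

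On leaving out single samples, the log2 fold changes ran from -0.29 to 0.21 for Celsr2, -0.063 to 0.26 for Celsr3, -0.41 to 0.11 for Vangl1, -0.35 to 0.0135 for Vangl2, -0.071 to 0.43 for Prickle1, -0.21 to 0.064 for Fat4 and -0.11 to 0.21 for Dchs1. For pathway genes that changed sign they ran from -0.003 to 0.13 for Fzd3, -0.20 to 0.15 for Fzd6, -0.23 to 0.0335 for Ptk7, -0.84 to 0.49 for Ror1, -0.15 to 0.093 for Dvl1, -0.53 to 0.0127 for Dvl3 and -0.14 to 0.16 for Fat3. The ratio differences ran from -0.25 to 0.27 for Vangl1 over Vangl2 and from -0.078 to 0.17 for Dchs1 over Fat4, and with the same sign from 0.20 to 0.68 for Celsr3 over Celsr1, 0.029 to 0.30 for Celsr3 over Celsr2 and 0.34 to 0.71 for Prickle2 over Prickle1. Without a change of sign, log2 fold changes ran from -0.45 to -0.029 for Fat1, -0.46 to -0.15 for Yap1 and -0.47 to -0.063 for Ror2.

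Of the pathway genes, 1 was called by the reported test, 3 by DESeq2 and 3 by limma-voom (Llgl2, Fzd7 and Wnt9a), 2 with GC and length offsets, 0 with a mean count of 50 or more, 0 against either pair of shams alone, 8 by an unadjusted p alone, and from 0 to 3 with a sample left out. Over all tested genes, 200 were called by the reported test, 425 by DESeq2, 328 by limma-voom, 73 with a mean count of 50 or more, 307 with GC and length offsets, 1520 by an unadjusted p alone, 0 against the S1 shams (1053 at an unadjusted p under 0.05), 2 against the S3 shams, and from 41 to 298 with a sample left out. The cause of these shifts was not tested, other than that the sham pairs alone have fewer samples and the higher filter fewer genes. No paired analysis was possible because in full the groups share only 1 sample number, that of T1-4 and S1-4, and the labels do not say what the numbers, or the last digits that recur in T1-1 and S3-1 and in T1-4 and S3-4, stand for. Depth limits the values of genes with few counts, such as Wnt11 (12 on average), Prickle3 (24.4), Llgl2 (51.5) and Vangl1 (76.1).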

Other observations

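None of the 12 radial glia and 10 cycling genes was called by edgeR or had an unadjusted p under 0.05, where 1.46% and 11.1% of all tested genes did, and the difference between these and other lists was not tested. The 12 radial glia genes summed to between 3730.5 and 4452 CPM in IUGR and between 3948 and 4677 CPM in sham, with Vim between 716 and 1245 CPM and Nes between 552 and 1092 CPM, with estimates below 0 for 8 of 12 and a median log2 fold change of -0.11. The 10 cycling genes summed to between 2428 and 5459 CPM in IUGR and between 4058 and 4541 CPM in sham, with Top2a between 939 and 2426 CPM and Mki67 between 539 and 1249 CPM; estimates were below 0 for 9 of 10 and the median was -0.13. The lowest cycling sum, 2428 CPM, was that of T1-3, the sample with the most Prickle1, Prickle2 and Vangl1, and the highest, 5459 CPM, was that of T1-4, the sample with the least Prickle1 and Vangl1. The sum of 7 Cajal-Retzius cell genes was 1334 CPM in T1-3, between 532 and 793 CPM in the other IUGR samples and between 335 and 958 CPM in sham, with Reln between 268 and 1129 CPM and Cacna2d2 between 23.2 and 81.8 CPM.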
